A study of Mus musculus with 12 samples.

Results

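Ependymal and motile cilia genes were followed in the spinal cord of mice with and without a healing lesion. The 24 genes were chosen by name, out of 37991 in the deposited count table: Foxj1, 10 further single genes (Hydin, Ccdc39, Ccdc40, Mlf1, Tmem212, Dnali1, Spef2, Spag6, Spag16 and Spag17), 2 outer arm intermediate chains (Dnaic1 and Dnaic2), 5 tektins (Tekt1 to Tekt5) and 6 radial spoke genes (Rsph1, Rsph3a, Rsph3b, Rsph4a, Rsph6a and Rsph9). The name pattern that was to add the axonemal dynein heavy chains, Dnah, matched 0 genes, because the deposited tables list these genes as Dnahc. The 15 Dnahc genes are therefore described beside the 24 and counted apart from them. Of the 24, 21 had enough counts to be tested, and Rsph6a, Spag17 and Tekt3 did not.

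Bulk RNA-seq of total RNA was deposited for 12 mice, with 4 in each of 3 groups, each library named here by its mouse number. Every mouse was an adult over 8 weeks old on a C57bl/6J background and carried the same alleles, Glast-CreERT2 x R26R-YFP x Rasless, so the uninjured and vehicle groups also held the Cre driver, the YFP reporter and the Rasless alleles. The Cre is driven by Glast (Slc1a3), used in this line to reach type A pericytes, the cells that line small vessels and form scar tissue. Glast is also known as a gene of astrocytes and radial glia, so the driver is not restricted to pericytes by its promoter alone. The SCI Tam mice were given 2 mg of tamoxifen on each of 5 days and, after 7 days of clearing, a dorsal hemisection of the high thoracic cord; the lesion was taken 14 days later. The SCI Veh mice had the injections of ethanol and corn oil without the drug and the same injury. The Uninjured mice are labelled with a vehicle injection and no injury, and a cord segment was taken. The design asks how a lesion with dense pericyte-derived scarring (vehicle) differs from one in which that scarring is attenuated (tamoxifen).

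Motile cilia are built on an axoneme of outer doublet microtubules around a central pair. Dynein arms slide the doublets, radial spokes pass signals from the central pair to the arms, and tektins run along the doublet walls. In the adult cord these cilia belong chiefly to the ependymal cells around the central canal, whose ciliary genes are switched on by the forkhead factor Foxj1 together with RFX factors, which bind a DNA motif called the X-box. Ependymal cells can leave the canal and divide after injury, which makes their transcripts of interest in a lesion.

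Library totals ran from 7967970 to 12581324 counts, and the 24 genes together held 1156 to 2027 counts in a library, and single genes far fewer. Libraries 513, 549 and 564, all SCI Tam, carry sample names 106 to 108, while the other 9 libraries carry names from 1 to 20; the labels do not say whether these 3 were prepared or sequenced apart. No SCI Veh or Uninjured library has such a name, so whatever sets the 3 apart can be told from the drug only through library 452. In the 3 libraries genes with transcripts of 10 kb and over stood lower than in the other SCI Tam library (values below, beside the genes they touch). Summed skeletal muscle markers exceeded 150 CPM in 5 libraries, 377, 385, 402, 429 and 457, called muscle-rich here. Read from Xist and Y-linked genes, the groups held 1 male and 3 females (Uninjured), 3 males and 1 female (SCI Veh) and 4 females (SCI Tam).

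Promoters were read to see what the genes share in sequence, since none of the choice rested on it. RefSeq promoter windows on GRCm38.p6, 250 bases before to 50 after each start, were matched for 21 of the 24 genes (24 windows), and not for Foxj1, Rsph1 and Rsph4a. The X-box, searched on both strands as GTNNCC, any 3 bases and GNAAC, was found in 4 of 24 windows (16.7%), against 714 of 32851 windows of all genes (2.17%). Its core GTTGCC, which lies within many X-boxes, was found in 11 windows (45.8%) of 10 genes, against 12.5% of all windows. The forkhead core TGTTTAC was found in 2 windows (8.33%), those of Mlf1 and Tekt3, against 3.65%, and TGTTTGT in 0 windows against 6.61%. The X-box matches are shown because they are the motif of the factors known to work with Foxj1; capitals mark the match, and each sequence reads 5′ to 3′ on the gene's strand.
Hydin (chr8:110266936-110266976, + strand, -41 to -1 from the start): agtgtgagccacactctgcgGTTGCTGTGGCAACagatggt
Spag16 (chr1:69826847-69826900, + strand, -123 to -70): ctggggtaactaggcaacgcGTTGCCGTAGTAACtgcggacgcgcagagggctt
Tekt4 (chr17:25471410-25471463, + strand, -180 to -127): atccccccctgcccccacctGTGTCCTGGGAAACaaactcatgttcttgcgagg
Tekt4, other match (chr17:25471590-25471603, + strand, 1 to 14): GTTCCTTAGGCAAC
Spag6 (chr16:16829316-16829329, - strand, 35 to 48): GTTGCCCTGGAGAC
In Hydin, Spag6 and the other Tekt4 match the motif reads on the opposite strand. The gene deposited as Spag6 is named Spag6l in RefSeq, and the window shown is that of Spag6l. These are matches of letters and not measured sites.

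**Figure D1:**
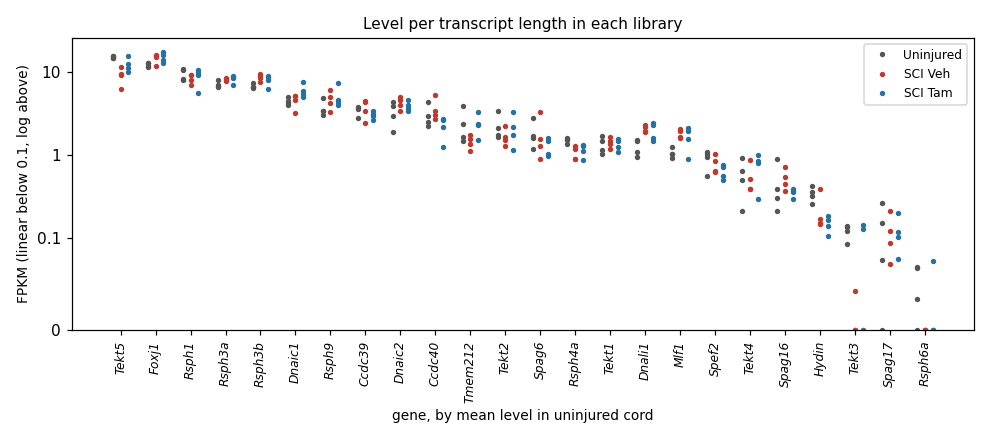
Level per transcript length of the 24 genes in each of the 12 libraries (FPKM, linear below 0.1 and log above), with genes ordered by their mean in uninjured cord and points coloured by group. Foxj1 and Tekt5 lead, and Rsph6a, Spag17, Tekt3 and Hydin lie lowest.

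Tekt5, Foxj1, Rsph1, Rsph3a and Rsph3b held the highest levels per length in uninjured cord, while Tekt3, Tekt4 and Rsph6a lay among the lowest. In the authors' FPKM (fragments per kilobase of transcript, scaled by depth), the highest level in uninjured cord was that of Tekt5, at 15.2 ± 0.433 (SD, n = 4), with all 4 libraries above the 11.4 to 12.9 of Foxj1. Foxj1 averaged 12.3 ± 0.774 FPKM and Rsph1, a spoke head protein, 9.46 ± 1.51. Rsph3a at 7.09 ± 0.654 and Rsph3b at 6.76 ± 0.457 FPKM did not differ beyond their spread, and their counts are uncertain, because 59.4% of the 31-base words of Rsph3a transcripts also occur in Rsph3b. Hydin, a giant protein of the central pair, had only 0.340 ± 0.0703 FPKM over a transcript of up to 15.8 kb. In vehicle lesions the order of the leading genes was reversed: Foxj1 averaged 14.6 ± 1.98 FPKM and Tekt5 9.11 ± 2.18, and no library of Tekt5 there (6.23 to 11.5) reached the lowest of Foxj1 (11.7).

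The summed level of the genes overlapped between all 3 groups. Summed over the 24 genes, the level was 162 ± 12.4 CPM in Uninjured, 156 ± 9.86 in SCI Veh and 158 ± 12.98 in SCI Tam (CPM, the count of a gene as a share of its library's total after TMM scaling, mean ± SD, n = 4). The Uninjured libraries summed to 155, 150, 165 and 178 CPM (mice 376, 377, 385 and 467), the SCI Veh libraries to 159, 168, 147 and 149 (402, 428, 429 and 457) and the SCI Tam libraries to 139, 162, 165 and 166 (452, 513, 549 and 564). The lowest sum was that of SCI Tam library 452. Because the tissue was sequenced in bulk, fewer ciliated cells and less RNA per ciliated cell cannot be told apart, and neither can a fixed number of cells in a changed mass of tissue.

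Among all 16473 genes tested, 50.8% passed the test in vehicle lesion against uninjured (edgeR quasi-likelihood, Benjamini-Hochberg adjusted p under 0.05), 26.7% higher and 24.1% lower. Of the 21 cilia genes tested, 5 passed, 2 higher (Dnali1 and Mlf1) and 3 lower (Rsph4a, Tekt5 and Tmem212). Their median log2 difference was 0.08, beside 0.02 for all genes, with 12 above 0 and 9 below. In 4 of the 21 the groups did not overlap, beside 51% of all genes tested. Tamoxifen lesions against uninjured cord, which share the uninjured libraries with the first comparison, had 48.9% of all genes passing (26.3% higher, 22.7% lower) and again 5 of the 21, with 2 higher (Dnaic2 and Dnali1) and 3 lower (Ccdc40, Hydin and Rsph4a). There the median was 0.13, beside 0.01 for all genes, and the groups did not overlap in 5, beside 41.1% of all genes. Dnali1 and Rsph4a are the 2 genes that passed in both.

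**Figure D2:**
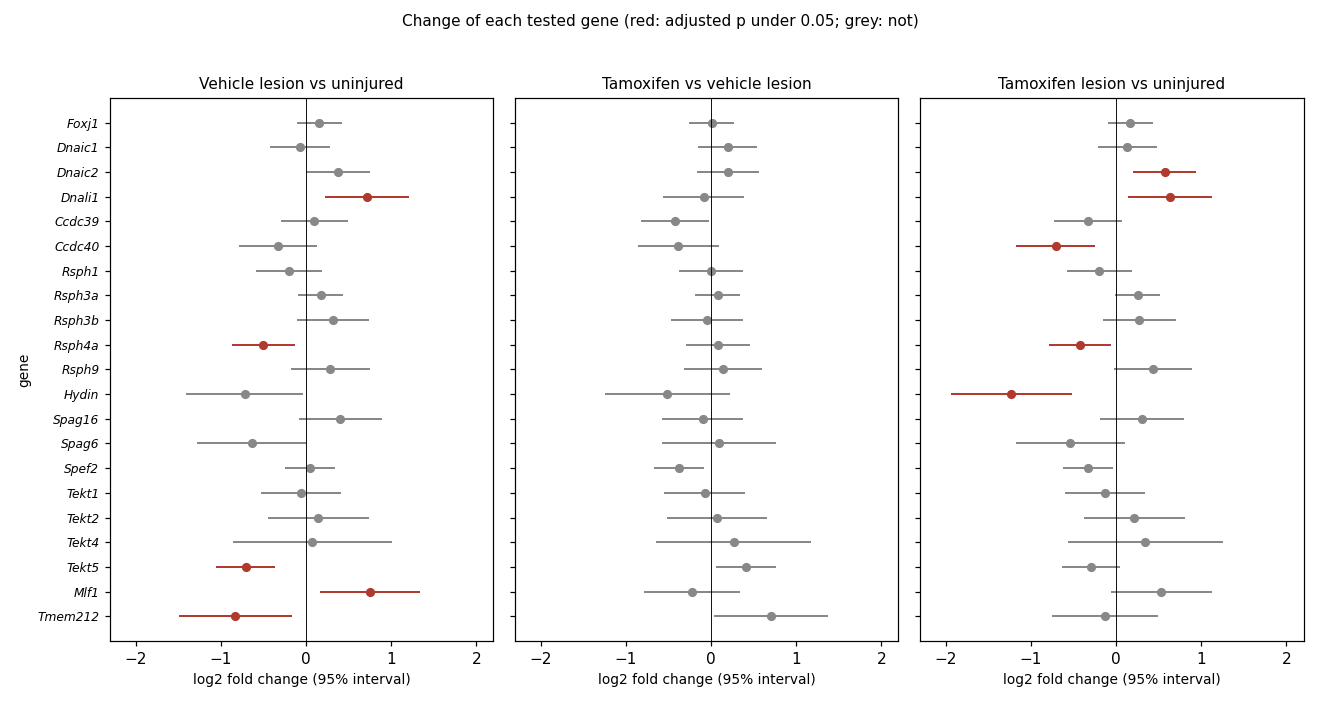
Log2 fold change of each of the 21 tested genes in the 3 comparisons, with its 95% interval; red points passed the test (adjusted p under 0.05) and grey ones did not. Red points lie on both sides of 0 against uninjured cord, and none is red between the lesions.

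Between the lesions 16.1% of all genes passed (7.79% higher, 8.33% lower with tamoxifen), and 0 of the 21 cilia genes did. That background changed with the fit: of 16473 genes 2655 passed, but 57 with a term for libraries 513, 549 and 564, 989 with a term for sex, and, among slightly more genes tested, 1236 without library 513, 1324 without 564, 1688 without 457, 4631 without 452 and 29 without 513, 549 and 564. The limma-voom and DESeq2 tests, and limma on the FPKM, also called 0. At an unadjusted p under 0.05 there were 4: Spef2, Tekt5, Ccdc39 and Tmem212. The median of the 21 was 0.01, beside 0.00 for all genes, and the differences ran from -0.51 (Hydin) to 0.70 (Tmem212). Tekt5 alone crossed the threshold when a library was left out, at 0.53 (adjusted p = 0.0412) without SCI Veh library 428.

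**Figure D3:**
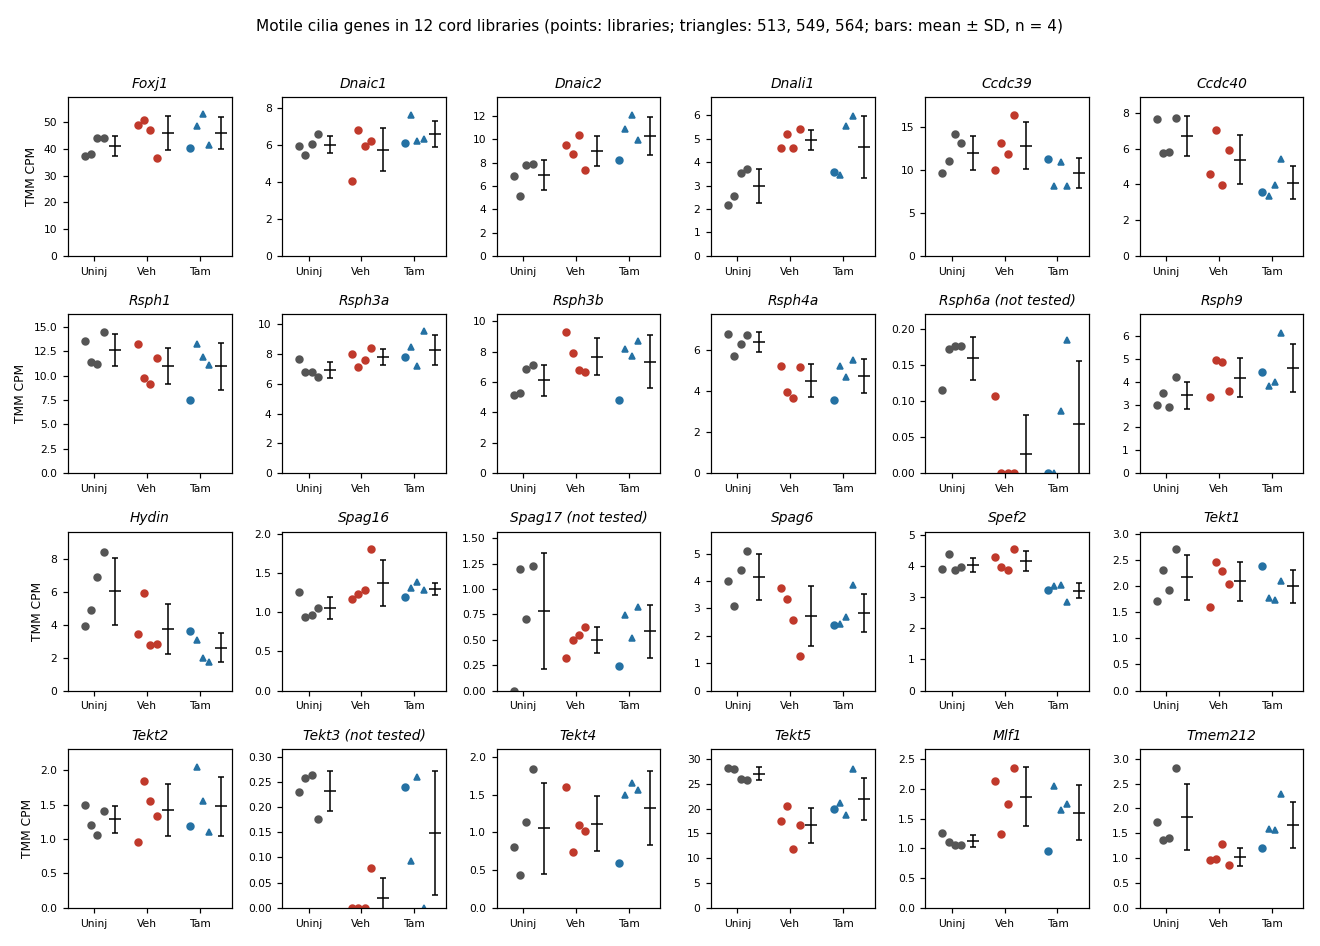
Level of each of the 24 genes (TMM-scaled CPM, each axis starting at 0) in every library, grouped as Uninjured, SCI Veh and SCI Tam; triangles are libraries 513, 549 and 564, and bars give mean ± SD of 4. Tekt5 and Rsph4a stand highest in Uninjured, Dnali1 lowest there, and Foxj1 overlaps in all 3 groups.

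Foxj1, the regulator that defines these cells, was detected in every library with 327 to 614 counts. It had 37.5, 38.1, 44.2 and 44.2 CPM in the Uninjured libraries, 49.0, 51.0, 47.0 and 36.5 in SCI Veh and 40.4, 48.7, 53.2 and 41.6 in SCI Tam. All but library 457 of the vehicle lesions lay above the uninjured range, and 2 of the 4 tamoxifen lesions did. Its log2 difference was 0.16 in vehicle against uninjured (95% interval -0.10 to 0.41, adjusted p = 0.285), 0.01 between the lesions (-0.25 to 0.26, adjusted p = 0.973) and 0.17 in tamoxifen against uninjured (-0.09 to 0.42, adjusted p = 0.259), so none passed, and the intervals leave room for changes of the size of those limits. Foxj1 made up 25.3% ± 1.05 of the summed level of the 24 genes in Uninjured, 29.4% ± 3.36 in SCI Veh and 29.1% ± 3.03 in SCI Tam.

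Other regulators of multiciliated cells passed in both directions. Of 7 such genes tested, 1 rose and 2 fell in vehicle against uninjured, beside 26.7% and 24.1% of all genes. Rfx2, an X-box factor, had 4.27 ± 0.797 CPM in Uninjured, 10.5 ± 1.80 in SCI Veh and 7.58 ± 1.37 in SCI Tam; it rose by 1.29 on the log2 scale in vehicle (SE 0.18, adjusted p = 8.97e-05) and 0.83 in tamoxifen (adjusted p = 0.00255), with no overlap in either. Trp73, a transcription factor of multiciliated cells that acts upstream of Foxj1, fell by 1.32 in vehicle (adjusted p = 0.00699) and by 0.91 in tamoxifen (adjusted p = 0.039), from 1.49 ± 0.437 CPM to 0.609 ± 0.257 and 0.788 ± 0.275. Gas2l2 fell by 0.92 in vehicle (adjusted p = 0.0259), and Plk4, a kinase of centriole duplication, rose by 0.68 in tamoxifen against uninjured (adjusted p = 0.0222). None of the 7 passed between the lesions, beside 16.1% of all genes.

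The dynein arms drive the beat, and Dnali1 and Dnaic2, the arm genes among the 24 that passed, rose. Dnali1, the light intermediate chain of inner arms, had 2.18, 2.57, 3.51 and 3.69 CPM in Uninjured, 4.59, 5.18, 4.59 and 5.41 in SCI Veh and 3.60, 3.45, 5.55 and 5.97 in SCI Tam. Every vehicle library lay above every uninjured one, while tamoxifen libraries 452 and 513 fell within the uninjured range. It rose by 0.72 in vehicle (SE 0.22, adjusted p = 0.0162) and by 0.63 in tamoxifen (SE 0.22, adjusted p = 0.0317). Leaving out library 377 (adjusted p = 0.0514) or 457 (0.051) ended the first call, as did a term for sex (0.59, adjusted p = 0.0705), and leaving out 376, 377, 549 or 564 ended the other.

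Dnaic2, an intermediate chain of outer arms, had 6.89, 5.14, 7.82 and 7.90 CPM in Uninjured, 9.51, 8.76, 10.4 and 7.37 in SCI Veh and 8.27, 10.9, 12.1 and 9.92 in SCI Tam. All tamoxifen lesions lay above all uninjured cords, and only vehicle library 457 lay within the uninjured range. It rose by 0.57 in tamoxifen against uninjured (SE 0.17, adjusted p = 0.0125); in vehicle the difference was 0.37 (adjusted p = 0.0784). On the authors' FPKM these groups overlapped (1.89 to 4.40 in Uninjured and 3.43 to 4.57 in SCI Tam), and in limma the tamoxifen difference was 0.23 on log2 FPKM with 1 added (adjusted p = 0.304) and 0.31 with 0.1 added (adjusted p = 0.297). Its partner Dnaic1 averaged 6.02 ± 0.451, 5.75 ± 1.18 and 6.58 ± 0.712 CPM in the 3 groups, with differences of -0.07, 0.20 and 0.13 that did not pass. A fit with a term for libraries 513, 549 and 564 took Dnaic2 to 0.25 (adjusted p = 0.553) and Dnali1 to 0.26 (adjusted p = 0.681) in tamoxifen against uninjured, since only library 452 then stands for the drug.

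The heavy chains are the dynein motors themselves. Of 12 Dnahc genes tested, 9 lay below 0 in vehicle against uninjured (median -0.19), 11 in tamoxifen against vehicle (median -0.36) and 12 in tamoxifen against uninjured (median -0.53), beside medians of 0.02, 0.00 and 0.01 for all genes. The vehicle median was -0.05 with 7 of 12 below 0 without library 402, -0.13 without 467, and 0.02 with 5 of 12 below 0 without the muscle-rich libraries. The median between the lesions was -0.16 with 9 of 12 below 0 with a sex term, -0.23 without library 428, and -0.73 without the muscle-rich libraries. Without the muscle-rich libraries, library 428 alone stood for the vehicle lesions. Its Dnahc median, 0.18 from the uninjured mean, was the highest of the vehicle lesions. On log2 FPKM with 1 added, a scale that understates the change of low genes, the medians of the 11 Dnahc genes present were -0.05, -0.05 and -0.12. Dnahc2 fell in both lesions, by 0.44 (adjusted p = 0.0322) and 0.67 (adjusted p = 0.00398), from 6.86 ± 0.701 to 5.09 ± 1.01 and 4.32 ± 0.558 CPM. Dnahc6 fell by 0.65 (adjusted p = 0.0126) and Dnahc9 by 0.62 (adjusted p = 0.0402) in tamoxifen against uninjured, and 0 of the 12 passed between the lesions. So 1 of 12 fell in vehicle and 3 of 12 in tamoxifen against uninjured, beside 24.1% and 22.7% of all genes. Of all genes, 16.1% passed between the lesions. Each of the 12 has a transcript of over 10 kb.

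Transcript length moved with this pattern across all genes. In tamoxifen against uninjured, the 391 tested genes with a transcript of 10 kb and over had a median of -0.46 with 65.5% passing as lower, and the 3900 genes under 2 kb a median of 0.18 with 7.41% passing as lower. Between the lesions these medians were -0.23 and 0.10, and in vehicle against uninjured -0.24 and 0.07. By library, the median of the long genes was -0.58, -0.51 and -0.59 from the uninjured mean in libraries 513, 549 and 564, against -0.20 in library 452 and -0.34 to -0.12 in the vehicle lesions. That of the Dnahc genes was -0.64, -0.48 and -0.54 in those 3 libraries and -0.30 in library 452. Vehicle library 402, at -0.53, lay among those 3, and the other vehicle libraries ran from -0.25 to 0.18. The Uninjured libraries ran from -0.22 to 0.30. With a term for those 3 libraries, their median between the lesions was -0.06 with 7 of 12 below 0, and against uninjured -0.31 with 11 of 12 below 0 and 0 passing. The part of length in the Dnahc values, and in those of the long members that follow, was not tested.

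**Figure D4:**
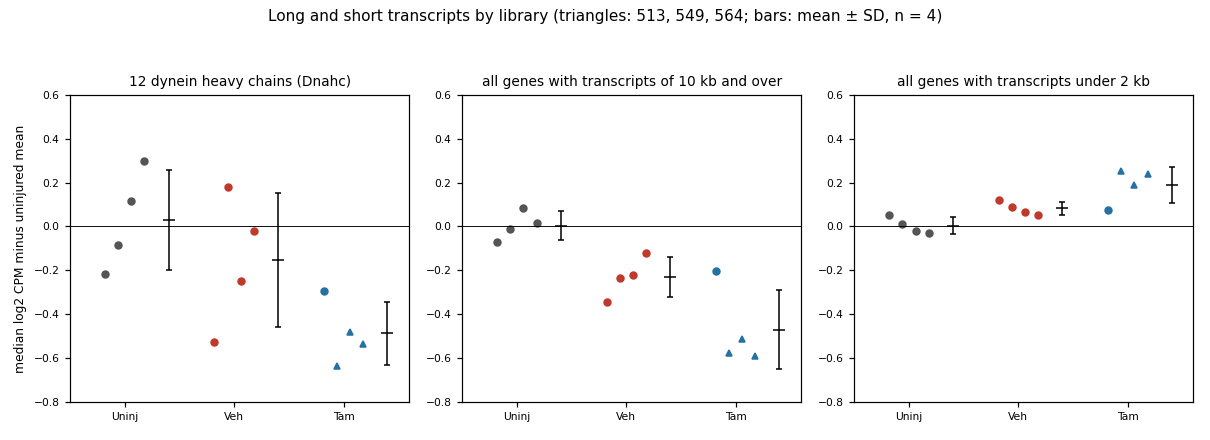
Median deviation from the uninjured mean (log2 CPM) in each library, for the 12 dynein heavy chains, for all genes with transcripts of 10 kb and over and for those under 2 kb; triangles are libraries 513, 549 and 564, and bars give mean ± SD of 4 libraries. The 3 triangles lie lowest among long genes and highest among short ones, and library 452 lies near the vehicle lesions.

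Hydin showed the widest difference of the 24 genes. It had 3.90, 4.88, 6.85 and 8.43 CPM in Uninjured, 3.42, 5.93, 2.76 and 2.82 in SCI Veh and 3.60, 3.08, 1.99 and 1.74 in SCI Tam. All 4 tamoxifen lesions lay below all uninjured cords, and 1 vehicle lesion, 428, lay within the uninjured range. Hydin fell by 1.23 in tamoxifen against uninjured (SE 0.32, adjusted p = 0.00716), and with each library left out in turn it ran from -1.43 to -1.03 and still passed. With a term for libraries 513, 549 and 564 it was -0.75 (adjusted p = 0.364), and without them -0.75 (adjusted p = 0.376), each resting on library 452; without the muscle-rich libraries it was -1.29 (adjusted p = 0.0586). In vehicle the difference was -0.72 (adjusted p = 0.0707), which passed without library 376 (-0.87, adjusted p = 0.0423) or 428 (-1.03, adjusted p = 0.0146) and with the sex term (-1.01, adjusted p = 0.0223). Between the lesions it was -0.51 (95% interval -1.23 to 0.21, adjusted p = 0.3).

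The other central pair genes were mixed. Spef2, with a transcript of 7.04 kb, had 3.90, 4.37, 3.87 and 3.95 CPM in Uninjured, 4.27, 3.95, 3.86 and 4.55 in SCI Veh and 3.24, 3.35, 3.38 and 2.85 in SCI Tam. In CPM every tamoxifen lesion, library 452 included, lay below every other library, and Spef2 is the only gene of the 21 whose 2 lesion groups did not overlap, beside 16.4% of all genes. On the authors' FPKM all 3 groups overlapped (0.552 to 1.08 in Uninjured, 0.615 to 1.02 in SCI Veh and 0.503 to 0.748 in SCI Tam). Its differences of -0.38 against vehicle (SE 0.13, unadjusted p = 0.0204, adjusted p = 0.0861) and -0.33 against uninjured (adjusted p = 0.0831) did not pass. Spag6 averaged 4.15 ± 0.836, 2.72 ± 1.09 and 2.84 ± 0.690 CPM in the 3 groups (vehicle against uninjured -0.63, adjusted p = 0.0905), and Spag16 1.06 ± 0.145, 1.37 ± 0.289 and 1.29 ± 0.0775, and neither passed. Spag17, below the filter, had 0 to 14 counts in a library.

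Ccdc39 and Ccdc40 form the ruler that spaces the spokes and inner arms along each doublet. Ccdc40 had 7.69, 5.74, 5.80 and 7.73 CPM in Uninjured, 4.59, 7.04, 3.95 and 5.96 in SCI Veh and 3.60, 3.35, 3.99 and 5.42 in SCI Tam. The tamoxifen lesions lay below all uninjured cords, and the vehicle lesions spread over both ranges. It fell by 0.71 in tamoxifen against uninjured (SE 0.21, adjusted p = 0.0141), a call that no single library decided, and with the term for libraries 513, 549 and 564 it was -0.90 (adjusted p = 0.133). In limma on log2 FPKM with 1 added it was -0.33 (adjusted p = 0.226). Ccdc39 averaged 11.98 ± 2.02, 12.8 ± 2.71 and 9.60 ± 1.74 CPM, and its difference of -0.42 between the lesions (unadjusted p = 0.0336, adjusted p = 0.117) did not pass. Exons of Ttc14 on the opposite strand overlap 16.9% of the exon bases of Ccdc39, and the strand setting of the counting is not given in the sources used here.

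Of the radial spoke genes, Rsph4a, a protein of the spoke head, was the only tested gene of 5 to pass in the edgeR fit of all 12 libraries. It had 6.77, 5.74, 6.33 and 6.76 CPM in Uninjured, 5.24, 3.95, 3.67 and 5.17 in SCI Veh and 3.60, 5.22, 4.68 and 5.51 in SCI Tam. Every lesion lay below every uninjured cord, with no order between the 2 kinds of lesion. Rsph4a fell by 0.50 in vehicle (SE 0.16, adjusted p = 0.0226) and by 0.42 in tamoxifen (SE 0.16, adjusted p = 0.0486). The vehicle call was lost without library 376, 467, 428 or 429 (adjusted p of 0.0536, 0.0552, 0.0508 and 0.0635), and the tamoxifen call without 376, 377, 385, 467, 452, 513 or 549. Rsph1 averaged 12.6 ± 1.63, 11.01 ± 1.88 and 10.97 ± 2.44 CPM in the 3 groups, and Rsph9, its partner in the head, 3.40 ± 0.605, 4.18 ± 0.842 and 4.60 ± 1.07, so that the differences of the head genes from uninjured cord did not share a sign. Rsph3a (6.93 ± 0.522, 7.80 ± 0.527 and 8.25 ± 1.01) and Rsph3b (6.11 ± 1.01, 7.66 ± 1.22 and 7.36 ± 1.76), near copies that encode a spoke stalk protein, did not pass in that fit either. In limma on log2 FPKM, Rsph3b passed in vehicle against uninjured, at 0.31 with 1 added (adjusted p = 0.033) and 0.34 with 0.1 added (adjusted p = 0.0329). In edgeR without library 452 it passed in tamoxifen against uninjured (0.41, adjusted p = 0.0483). Rsph6a, a relative of Rsph4a known from sperm, had 0 to 2 counts in a library.

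Tekt5 had the smallest p of the 21 genes in vehicle against uninjured. It had 28.2, 28.0, 26.0 and 25.7 CPM in Uninjured, 17.4, 20.5, 11.8 and 16.7 in SCI Veh and 19.9, 21.2, 18.7 and 28.0 in SCI Tam. All vehicle lesions lay below all uninjured cords, and of the tamoxifen lesions only 564 reached the uninjured level. Tekt5 fell by 0.71 in vehicle (SE 0.16, adjusted p = 0.00216) and passed without each single library. Of 26 alternatives it passed in 24; it failed the call that also asked for a 2-fold change, and without the 5 libraries high in muscle transcripts it was -0.42 (adjusted p = 0.382). In tamoxifen against uninjured it was -0.30 (adjusted p = 0.125), which passed without library 564 (-0.44, adjusted p = 0.026), and between the lesions 0.41 (unadjusted p = 0.0219, adjusted p = 0.0898). The 8 neuronal markers listed had median differences of -0.93 in vehicle against uninjured, -0.59 in tamoxifen against uninjured and 0.29 between the lesions. The part of neurons, or of any other cell type, in the Tekt5 values was not tested. Tekt1 averaged 2.17 ± 0.440, 2.10 ± 0.377 and 2.00 ± 0.313 CPM in the 3 groups, Tekt2 1.29 ± 0.198, 1.43 ± 0.376 and 1.48 ± 0.430, and Tekt4 1.05 ± 0.601, 1.12 ± 0.359 and 1.32 ± 0.488, and none of these passed. Tekt2 shares 20.8% of its exon bases with Gm12945 on the opposite strand. Tekt3 had 0 to 3 counts in a library.

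Mlf1 and Tmem212 moved in opposite directions in vehicle lesions at levels near 1 CPM. In tamoxifen against uninjured neither passed, at 0.53 (adjusted p = 0.12) for Mlf1 and -0.13 (adjusted p = 0.732) for Tmem212. Without library 452, Mlf1 passed there (0.68, adjusted p = 0.035). Tmem212, a transmembrane protein, had 1.72, 1.37, 1.41 and 2.81 CPM in Uninjured, 0.962, 0.988, 1.29 and 0.862 in SCI Veh and 1.20, 1.58, 1.56 and 2.30 in SCI Tam. The vehicle lesions lay below all uninjured cords, and the tamoxifen lesions overlapped with both. Tmem212 fell by 0.83 in vehicle (SE 0.30, adjusted p = 0.0345), and the call was lost without library 376, 467, 402, 428 or 457, with the difference at -0.54 (adjusted p = 0.145) without 467. On the authors' FPKM these groups overlapped (1.47 to 3.92 in Uninjured and 1.11 to 1.75 in SCI Veh). In limma on log2 FPKM the difference was -0.41 with 1 added (adjusted p = 0.134) and -0.58 with 0.1 added (adjusted p = 0.132). The DESeq2 Wald test (adjusted p = 0.0657) and edgeR with no filter (adjusted p = 0.0556) ended the call too. Between the lesions the difference of Tmem212 was 0.70 (unadjusted p = 0.0381, adjusted p = 0.126). Mlf1 had 1.05 to 1.26 CPM in Uninjured, 1.23 to 2.35 in SCI Veh and 0.959 to 2.05 in SCI Tam. Mlf1 rose by 0.75 in vehicle (SE 0.27, adjusted p = 0.0309) although the groups overlapped through library 428, and the call was lost without 377, 385, 467, 402, 429 or 457 and with a sex term. It was also lost in the DESeq2 Wald test (adjusted p = 0.0768) and in edgeR with no filter (adjusted p = 0.0733). When the 5 libraries with high muscle transcripts were left out, 1 vehicle library remained, 0 of the 5 vehicle calls passed and 296 of 17393 genes did. The differences were then 0.07 for Mlf1, -0.42 for Tekt5, 0.78 for Dnali1, -0.80 for Rsph4a and -1.23 for Tmem212.

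Genes that work with the 24 were counted from lists of other axonemal, assembly and transport genes. Among all genes tested, 26.7% rose and 24.1% fell in vehicle against uninjured, and 26.3% and 22.7% in tamoxifen against uninjured. Between the lesions 7.79% of all genes rose and 8.33% fell. Of 16 genes for dynein assembly and docking, 5 rose and 3 fell in vehicle against uninjured, 2 rose and 3 fell in tamoxifen against uninjured, and 0 passed between the lesions. Among the former, Heatr2, an assembly factor, rose by 0.44 (adjusted p = 0.00168), Pih1d1, a co-chaperone, by 0.56 (adjusted p = 0.00189), and Spag1, also an assembly factor, fell by 0.42 (adjusted p = 0.00219). Of 25 partners in the nexin link, central pair and ruler, 2 rose and 3 fell in vehicle, 1 rose and 7 fell in tamoxifen and 0 passed between the lesions, with medians of -0.02, -0.33 and -0.18. Ccdc65, a nexin link subunit, fell by 0.73 in vehicle (adjusted p = 0.000586) and by 0.44 in tamoxifen (adjusted p = 0.0147), from 9.86 ± 0.583 to 5.95 ± 1.01 and 7.27 ± 0.661 CPM. Lrrc48, of the same link, fell by 0.54 and 0.53 (adjusted p = 0.00641 and 0.00778). Ccdc108 fell by 1.11 in tamoxifen (adjusted p = 0.00348), from 11.5 ± 2.75 to 5.36 ± 1.31 CPM.

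Of 24 other motile cilia genes, 3 rose and 3 fell in vehicle, 2 rose and 2 fell in tamoxifen and 0 passed between the lesions. Of all genes, in either direction, 50.8% passed in vehicle, 48.9% in tamoxifen and 16.1% between the lesions. Dnajb13, a spoke protein, rose by 1.42 in vehicle (adjusted p = 0.000978) and 0.78 in tamoxifen (adjusted p = 0.039), from 1.41 ± 0.302 to 3.84 ± 0.709 and 2.41 ± 0.899 CPM. Mns1, a protein inside the doublets, fell by 0.54 in tamoxifen (adjusted p = 0.00655). Intraflagellar transport and BBSome genes serve primary cilia too and so are not confined to ependymal cells. Of 30 tested, 2 rose and 6 fell in vehicle, 1 rose and 9 fell in tamoxifen, and between the lesions 1 rose (Kifap3, by 0.23, adjusted p = 0.0457) and 2 fell (Bbs2, by 0.33, adjusted p = 0.0185, and Ift172, by 0.45, adjusted p = 0.0227). Summed neuronal markers, from cells that carry primary cilia, ran from 4294 to 4658 CPM in Uninjured, 2500 to 3170 in SCI Veh and 3008 to 4097 in SCI Tam; their part in the transport genes was not tested.

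**Figure D5:**
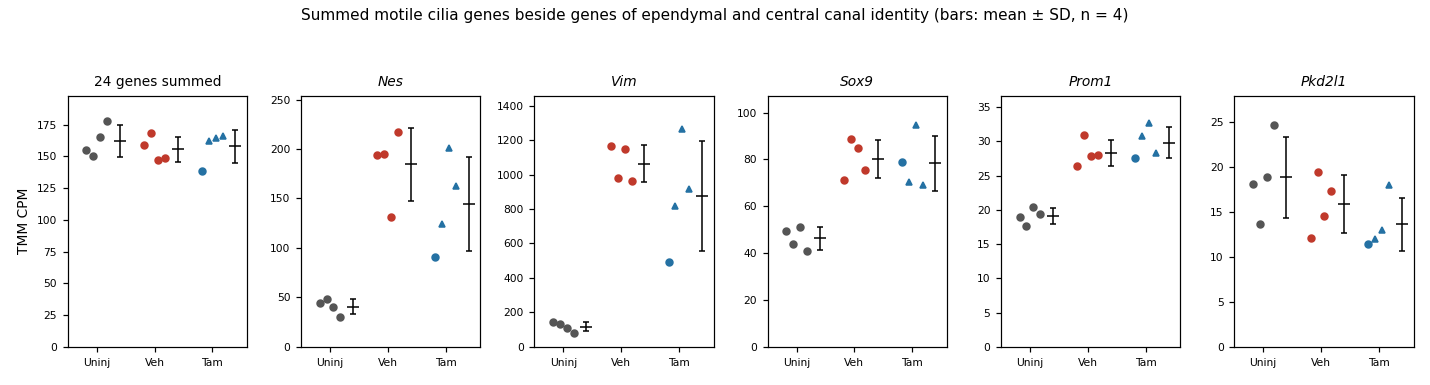
Summed level of the 24 cilia genes and levels of Nes, Vim, Sox9, Prom1 and Pkd2l1 in each library (TMM-scaled CPM, axes starting at 0), grouped as Uninjured, SCI Veh and SCI Tam; triangles are libraries 513, 549 and 564, and bars give mean ± SD of 4. The cilia sum stays between 139 and 178 CPM, while Nes, Vim, Sox9 and Prom1 stand above the uninjured range in every lesion.

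Of 15 genes of ependymal and central canal identity tested, several of which, such as Vim, Nes and Sox9, astrocytes express too, 9 rose and 0 fell in vehicle (median 0.56), 11 rose and 0 fell in tamoxifen (median 0.59), and 1 rose and 1 fell between the lesions. Of all genes, 26.7% rose in vehicle, 26.3% in tamoxifen and 7.79% between the lesions. Vim, an intermediate filament, rose by 3.19 in vehicle (adjusted p = 3.16e-06), S100a6, a calcium-binding protein, by 2.73 (adjusted p = 1.17e-06), Nes, a filament of immature neural cells, by 2.18 (adjusted p = 1.68e-05) and Rarres2, the chemokine chemerin, by 1.58 (adjusted p = 1.79e-06). Nes had 30.5 to 48.5 CPM in Uninjured, 131 to 218 in SCI Veh and 90.7 to 201 in SCI Tam. Between the lesions Rarres2 fell by 0.53 (SE 0.10, adjusted p = 0.00718), from 14.1 ± 1.38 to 9.77 ± 0.604 CPM with no overlap, and Cd24a, a surface protein of ependymal cells, rose by 0.46 (SE 0.14, adjusted p = 0.043), from 63.1 ± 2.72 to 86.9 ± 22.1.

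The 9 that rose in vehicle are made by other cells of the lesion as well, and those cells' markers moved in the same libraries. Summed astrocyte markers ran from 6504 to 7263 CPM in Uninjured, 9369 to 11830 in SCI Veh and 10784 to 13660 in SCI Tam, macrophage and microglia markers from 181 to 270, 1625 to 3289 and 1130 to 2660, and fibroblast and meninges markers from 201 to 559, 2785 to 7783 and 581 to 1013. The part of these cells in the rises of Vim, S100a6, Nes and Rarres2 was not tested. The 4 of the 15 that passed in neither lesion against uninjured, named here after their values were seen, were Pkd2l1, Pkd1l2, Nkx6-1 and Msx1. Pkd2l1, of neurons that contact the canal, averaged 18.9, 15.9 and 13.6 CPM, Pkd1l2 had differences of -0.69 and -0.85 in vehicle and tamoxifen, Nkx6-1 of -0.12 and -0.16, and Msx1 of 0.08 and 0.10. Choroid plexus markers, the other multiciliated epithelium of the nervous system, summed to 8.78 to 14.0, 4.04 to 10.2 and 5.64 to 11.4 CPM, with Ttr at 0 to 0.360 CPM and 1 of the 6 at 0 in all libraries. Testis and sperm markers summed to at most 0.803 CPM. The 5 Hox genes chosen as markers of the cord segment all lay below 0 against uninjured, with a median of -0.35 in vehicle and -0.23 in tamoxifen. Of these, 3 passed as lower in vehicle and 2 in tamoxifen, beside 24.1% and 22.7% of all genes. Whether the uninjured and lesion samples came from the same cord level was not tested.

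Within groups, the measured levels of the genes did not vary together closely. Several of the genes rest on few counts, such as Tekt4 with 5 to 21 in a library. The part of counting noise in these low correlations was not tested. Taking each gene's deviation from its group means over the 12 libraries, the median correlation of the 210 pairs of tested genes was 0.09, and 58.6% of pairs were positive, a description over libraries that share their depth and scaling. Against the mean of the others, r ran from -0.40 for Spef2 to 0.76 for Rsph3b, and was 0.42 for Foxj1. The 10 genes outside the list whose deviations were most like the mean of the 21, among 15950 candidates, began with Gm15484 (r = 0.95), Tmem80 (0.90) and Mad2l1 (0.89), and none of the 10 is in the lists of cilia genes. By this mean, library 452 was lowest at -0.21 and 467 highest at 0.22 from its group.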

How the data were processed

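Total RNA of 12 cord samples (RNeasy kit) was sequenced by the authors. TopHat, Picard, Cufflinks and HTSeq and the build mm9 are named in the submitters' processing notes, without role, settings or strand use. The authors deposited raw counts for 37991 Ensembl genes and, in another table, FPKM values with gene symbols. The members and lists were chosen with earlier results of these data known.

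The test was edgeR's quasi-likelihood test (edgeR 4.0.16, R 4.3.3), two-sided, from 1 fit of 3 group means with 9 residual degrees of freedom after TMM scaling. Genes under filterByExpr's minimum count of 10 or total of 15 were dropped, leaving 16473, with Benjamini-Hochberg adjustment over all genes at 0.05. On simulated counts for vehicle against uninjured (16473 genes, 50 changed at each size), it called 39 of 50 genes raised 2-fold, 40 of 50 lowered to 0.5-fold, 49 of 50 raised 4-fold and 48 of 50 lowered to 0.25-fold, and 7 of 16273 unchanged genes. How often the edgeR test calls differences under 2-fold, the size of the vehicle calls among the cilia genes, was not tested. Its calls where 50.8% of genes differ, the share that passed in vehicle against uninjured, were not tested either. The changed genes were drawn from all those with a mean above 1 CPM, and recovery at the levels of the cilia genes was not tested apart. Replicates are separate mice by their numbers. Alternatives were DESeq2 1.42.0, limma 3.58.1 (voom, and log2 FPKM with 1 or 0.1 added), other scalings and filters, terms for libraries 513, 549 and 564 and for sex, a 2-fold limit and each library left out; leaving out those 3 libraries or the muscle-rich libraries, and counting the Dnahc genes, were added after the data were seen.

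Members with a mean of at least 1 CPM were described by name, and of each list up to 4 genes with the smallest p in a comparison; Msx1, Nkx6-1, Pkd1l2 and Pkd2l1 were named after their values were seen. Transcript lengths, shared words and exon overlaps came from GENCODE vM21 on GRCm38 and not on mm9, so no positions are given for counted genes; promoters came from RefSeq. Lengths were found for 96.8% of tested genes. Reads carry no molecular identifiers, so amplified copies cannot be told from separate molecules in the counts. A check of the labels on the targeted genes is not reported here.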

Additional observations from a re-analysis of the deposited data

Results flagged for a closer look

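Of 66 groups of 4 libraries examined (the members' levels and their sum), 4 had a library far from its group, where chance gives about 1 in 20. Dnaic1 had 7.64 CPM in SCI Tam library 513 and 6.11 to 6.34 in the other 3. Tekt4 had 0.599 CPM in SCI Tam library 452 and 1.49 to 1.65 in the others. Spef2 had 4.37 CPM in Uninjured library 377 and 3.87 to 3.95 in the others. The summed level of the 24 genes was 139 CPM in SCI Tam library 452 and 162 to 166 in the others, so library 452 is low in 2 of the 4.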

How the results depend on the processing

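In vehicle against uninjured, the 5 genes that passed became 3 with the DESeq2 Wald test, 0 with a 2-fold limit and 0 without the muscle-rich libraries. In tamoxifen against uninjured, 5 became 3 with no filter, 2 in limma on log2 FPKM with 1 or with 0.1 added, 0 with the term for libraries 513, 549 and 564, 1 with a 2-fold limit, 0 without libraries 513, 549 and 564, 1 without the muscle-rich libraries and 8 with the Dnahc genes counted. The 8 with the Dnahc genes counted came from a larger set, since 12 tested Dnahc genes, of which 3 passed, joined the 21. Of all genes, 48.9% passed there. With each library left out in turn, the counts ran from 2 to 5 in vehicle against uninjured, from 0 to 1 between the lesions and from 3 to 6 in tamoxifen against uninjured. The cause of these changes was not tested, beyond the lower number of libraries that stand for a group. No called gene changed direction under any alternative run. Of 26 alternatives, 2 of them added after the data were seen, the vehicle calls of Tekt5, Dnali1, Rsph4a, Mlf1 and Tmem212 were kept in 24, 21, 20, 15 and 15, and the tamoxifen calls of Hydin, Ccdc40, Dnaic2, Dnali1 and Rsph4a in 23, 21, 20, 16 and 10. All 5 vehicle calls were lost without the muscle-rich libraries, and all 5 tamoxifen calls without libraries 513, 549 and 564. Among all genes the 8063 passing in tamoxifen against uninjured became 1951 with the term for these 3 libraries, 2024 without them and 3540 without the muscle-rich libraries. No paired analysis was possible because the groups share no mouse number. Libraries 513, 549 and 564 are all SCI Tam, so a fit with their term compares library 452 with the other groups. Members near 1 CPM rest on 8 to 32 counts a library (Mlf1, Tmem212), which limits what could be detected.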

Other observations

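Count and FPKM tables were compared for 15259 genes, and in 497 of them (3.26%) the ratio of the 2 values stepped between libraries 513, 549 and 564 and the other 9. Of the 16 cilia genes with enough counts for this comparison, 0 stepped.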
